A study of Mus musculus with 10 samples.

Results

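The genes described here are 10 growth factor, matricellular and receptor genes of the TGF-beta and PDGF pathways, which drive scarring in many organs. They comprise the ligand genes Tgfb1, Tgfb2, Pdgfa and Pdgfb, the CCN genes Ctgf and Cyr61, and the receptor genes Tgfbr1, Tgfbr2, Pdgfra and Pdgfrb. They were chosen by name, 10 of the 28808 genes listed over all tables, and were read in every cell of 10 Drop-seq libraries of mouse kidney cortex from animals labelled 4 weeks old. One library came from normal kidneys (the control), 1 each from kidneys on days 1, 2 and 4 after injury, and 2 each from days 7, 11 and 14. The series concerns acute kidney injury, but the labels do not say how the kidneys were injured and give no strain, sex or treatment of the controls. Nor do they say whether the pair of libraries of a day came from different animals, so the p-values below measure only the spread between libraries, which may be technical. The control and days 1, 2 and 4 have no replicate. The question was which cell classes carried the RNA of each ligand and each receptor on each day.

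TGF-beta is secreted in a latent form, is released from it by integrins, and binds the type II receptor encoded by Tgfbr2, which then activates the type I receptor encoded by Tgfbr1. The type I receptor phosphorylates SMAD2 and SMAD3, which enter the nucleus with SMAD4 and turn on matrix genes and protease inhibitors. Ctgf (renamed Ccn2) and Cyr61 (renamed Ccn1) encode secreted CCN proteins that bind integrins, and both are widely used readouts of YAP and TEAD transcription. PDGF chains act as dimers: PDGF-A through the receptor of Pdgfra, PDGF-B through those of both Pdgfra and Pdgfrb. In the kidney these receptors are known from fibroblasts, mesangial cells, pericytes and smooth muscle.

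The promoters of Cyr61, Tgfb2 and Tgfb1 are shown because the time courses of these genes in tubular cells carry the main contrast of the results. Each sequence is the 250 bases before the gene's start in RefSeq on GRCm38.p6, read on the gene's own strand. Capitals mark every match, on either strand, to a TATA box (TATAAA), a TEAD element (GGAATG), a GC box (CCGCCC), an AP-1 element (TGACTCA) or a SMAD palindrome (GTCTAGAC).
Cyr61 (chr3:145649986-145650235, minus strand): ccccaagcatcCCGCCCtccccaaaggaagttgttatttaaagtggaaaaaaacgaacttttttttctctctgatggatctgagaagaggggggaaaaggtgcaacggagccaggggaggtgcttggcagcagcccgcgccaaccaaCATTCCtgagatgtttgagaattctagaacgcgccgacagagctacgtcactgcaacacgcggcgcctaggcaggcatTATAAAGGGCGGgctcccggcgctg
Tgfb2 (chr1:186705990-186706239, minus strand): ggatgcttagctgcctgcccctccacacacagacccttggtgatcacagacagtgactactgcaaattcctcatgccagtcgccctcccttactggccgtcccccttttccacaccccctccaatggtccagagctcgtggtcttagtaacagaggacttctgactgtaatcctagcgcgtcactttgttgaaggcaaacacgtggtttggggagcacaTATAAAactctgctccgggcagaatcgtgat
Tgfb1 (chr7:25686752-25687001, plus strand): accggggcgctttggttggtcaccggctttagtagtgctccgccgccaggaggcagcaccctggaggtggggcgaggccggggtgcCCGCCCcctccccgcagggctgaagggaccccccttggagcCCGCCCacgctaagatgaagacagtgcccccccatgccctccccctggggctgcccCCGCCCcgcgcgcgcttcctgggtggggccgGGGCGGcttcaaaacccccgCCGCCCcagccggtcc
The Cyr61 window held a TATA box 25 bases before the start, a TEAD element at 103 bases and GC boxes at 239 and 19 bases. The Tgfb2 window held a single match, a TATA box at 31 bases. The Tgfb1 window held no TATA box and 5 GC boxes, at 164, 123, 67, 36 and 16 bases, and 75.2% of its bases were G or C. Of the 32851 windows of the same length in the RefSeq table, 12.4% held TATAAA, 12.6% GGAATG, 32.7% CCGCCC, 4.46% TGACTCA and 0.167% GTCTAGAC. A match describes letters in a window and is not a site of binding. Windows of the table were used for 7 of the 10 genes.

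In the GENCODE M21 annotation of GRCm38, Tgfb1 spans chr7:25687002-25705077, Tgfb2 chr1:186622792-186705989, Pdgfa chr5:138976014-138997370 and Pdgfb chr15:79995874-80014977. Ctgf spans chr10:24595442-24598683, Cyr61 chr3:145646976-145649981, Tgfbr1 chr4:47353222-47414931, Tgfbr2 chr9:116084293-116175360 and Pdgfra chr5:75152292-75198215. Tgfb2, Ctgf, Pdgfa, Pdgfb and Pdgfra each overlap an annotated gene on the opposite strand. Pdgfrb was not checked for position or overlap. Whether counting used the strand is not given in the sources used here, so reads from those partners cannot be told apart.

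Library totals ran from 7091848 to 31632205 unique molecular identifiers (UMIs, 1 per captured RNA molecule), and 52797 cells passed the filters. The day 11 libraries stood apart: the minimum of 500 genes per cell removed 5362 of 10800 and 5424 of 10711 of their barcodes and 0 in each of the other 8 libraries. Every comparison of day 11 with day 7 below rests on them, and the part of this difference between the tables in those results was not tested. Cells were assigned to 17 classes by their own marker UMIs (no cell passed as a platelet), with none of the 10 genes among the markers, and 49304 received a class. Of 45 further genes used as a check, 44 were at least 2 times higher in their class than in all other gated cells summed. The exception was Lcn2 in tubular cells with injury markers. Gata3, Rhcg, Tyrobp, Ly6d and Lcn2 were highest in a class other than the one they were used to check. Phagocytes numbered 45 cells in the control and 939 and 1501 on day 7, and fibroblasts 172 in all, with 0 in day 11 replicate 2 and in both day 14 libraries. Pairs of libraries shared at most 4 cell barcodes, and 62 over 45 pairs, against 74.4 expected by chance. Levels are counts per 1e6 UMIs of a class in a library (CPM), given only for at least 20 cells.

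The genes differed in the class that held their highest level. By median level Pdgfra was highest in fibroblasts (134 CPM) and at most 3.85 CPM in every other class, and Pdgfrb was highest in fibroblasts (377 CPM), then in mural cells (211 CPM), a gate meant for the smooth muscle cells and pericytes of vessels. The markers of that gate include Ren1, the renin gene, so renin-producing cells can enter it too. Tgfbr1 was highest in mononuclear phagocytes (157 CPM) and Tgfbr2 in fibroblasts (132 CPM) and endothelial cells (119 CPM). Of the ligand genes, Pdgfa was highest in mural cells (390 CPM), Pdgfb in endothelial cells (51.9 CPM), Tgfb2 in mural cells (85.0 CPM) and Tgfb1 in fibroblasts, there from only 14 UMIs, with phagocytes next (21.6 CPM). Of the CCN genes, Ctgf was highest in fibroblasts (621 CPM), then in mural cells (542), endothelial cells (345) and podocytes (305). These medians rest on 4 libraries for fibroblasts, 7 for mural cells and podocytes and 10 for endothelial cells. Of the endothelial Ctgf UMIs 91.7% lay in 158 cells described below, and the other endothelial cells stood at 43.6 CPM over all libraries. Cyr61 was highest in mural cells (473 CPM). Tubular cells were 41568 of the cells, and they held most UMIs of 7 of the genes: 95% for Cyr61, 88.6% for Pdgfa, 79.8% for Pdgfb, 78.0% for Tgfbr1, 75.0% for Tgfbr2, 70.7% for Tgfb2 and 51.5% for Ctgf. These shares sum the 10 libraries, in which tubular cells held 71.5 to 98.2% of all UMIs of gated cells. For Cyr61, Pdgfa, Pdgfb, Tgfbr1 and Tgfbr2 the tubular share was the largest in each of the 10 libraries. For Tgfb2 endothelial cells held more than tubular cells in the control (56.6% against 26.2%), in day 11 replicate 1 (61.0% against 28.6%) and in both day 14 libraries (56.7% against 40.0% and 62.5% against 27.1%). For Ctgf they did so in the control (45.8% against 35.5%) and in both day 11 libraries (49.6% against 17.0% and 48.3% against 29.1%). Over the 10 libraries phagocytes held the largest part of Tgfb1, 43.9%, against 37.8% in tubular cells, but the day 7 pair gave 63 and 100 of the 223 phagocyte UMIs. Phagocytes held the largest part in those libraries alone (67.0% and 64.1%). On days 1, 2 and 4 tubular cells held more (58.1, 47.6 and 64.0%, against 9.30, 30.2 and 33.0%). Endothelial cells held 27.9, 11.1 and 3.0% on those days, the first above the phagocyte share. The control and each later library had at most 23 Tgfb1 UMIs in gated cells. In day 11 replicate 1 endothelial cells held the largest part of them, 47.8%. Summed in the same way, tubular cells held 40.1% of the Pdgfra UMIs, against 29.9% in fibroblasts, and 31.8% of those of Pdgfrb, against 31.2% in endothelial cells and 16.4% in fibroblasts; the class with the largest share of either gene differed between libraries.

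**Figure D1:**
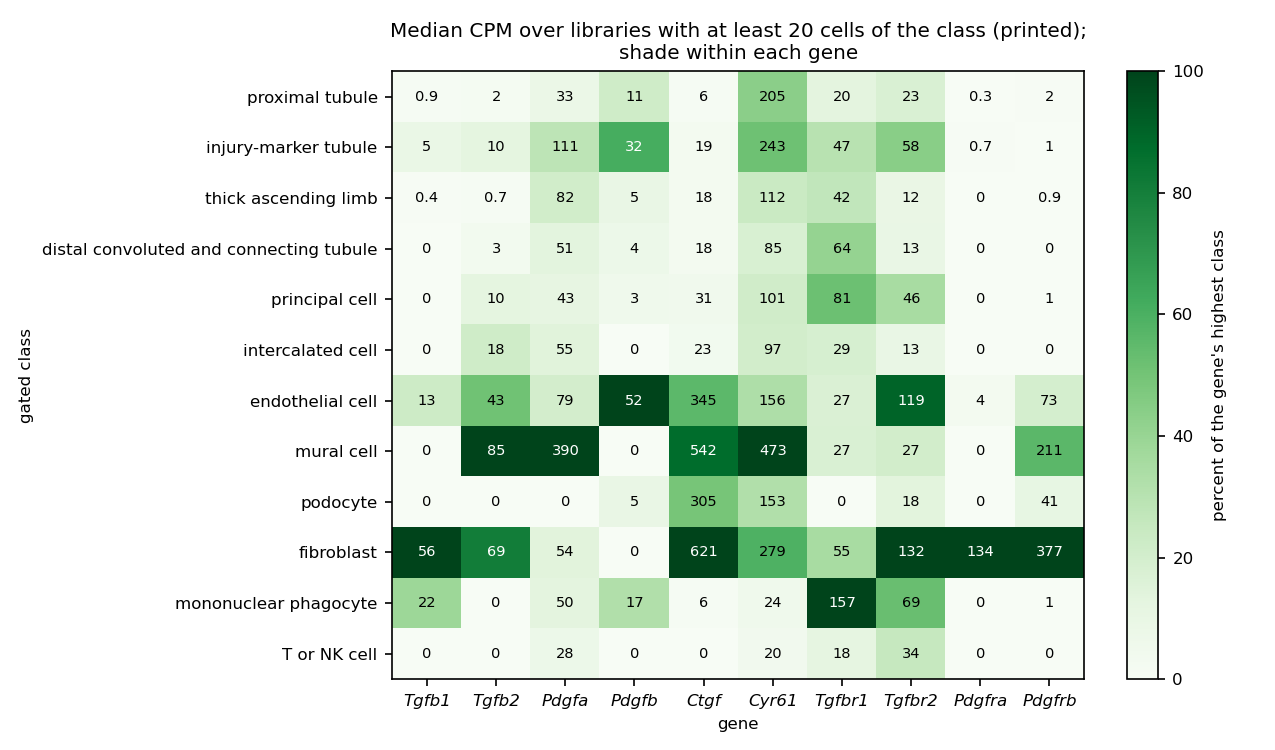
Heat map of the 10 genes (columns) over the gated cell classes (rows). The printed number is the median CPM over libraries with at least 20 cells of the class, and the shade is the percent of that gene's highest class, so shades compare classes and not genes; Pdgfra is darkest in fibroblasts, Tgfbr1 in phagocytes and Pdgfa in mural cells.

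**Figure D2:**
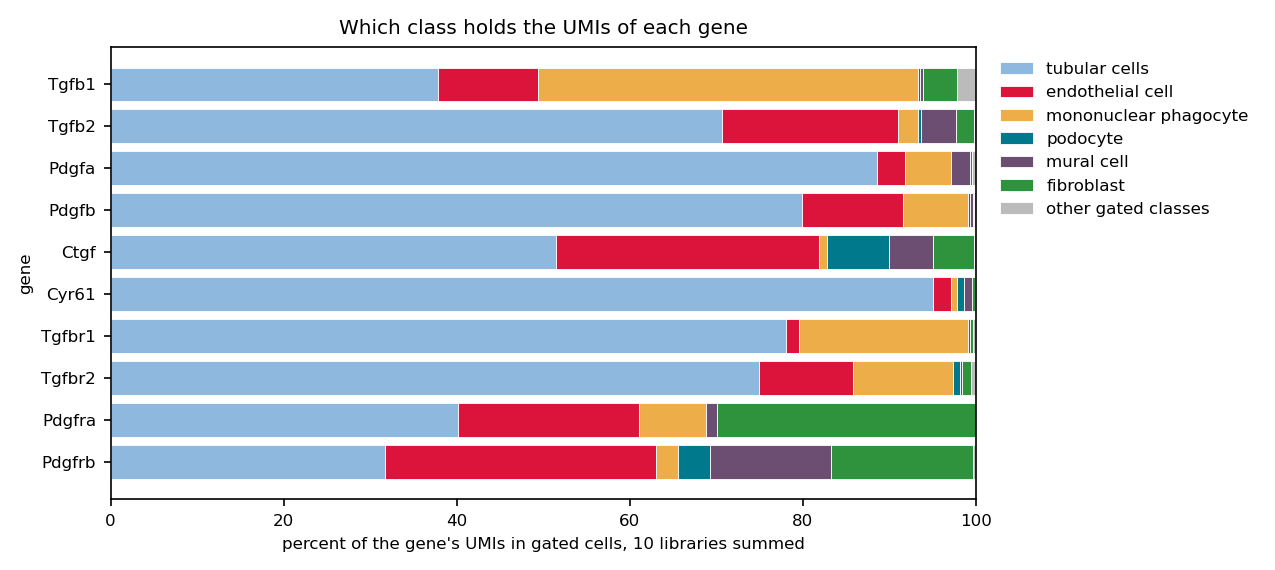
Stacked bars of the percent of each gene's UMIs in gated cells that lay in each class, all 10 libraries summed. Tubular cells hold 95% of the Cyr61 UMIs and 37.8% of those of Tgfb1. In single libraries they held 71.5 to 98.2% of all UMIs of gated cells.

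One fact of scale bears on each comparison of days in tubular cells. The 10 most abundant genes took 29.5% of tubular UMIs in the control and 8.47% and 9.51% on day 7, so CPM values differ in scale between the days. With total counts alone the median gene changed by 0.81 on the log2 scale from control to day 7, and with the trimmed mean of M-values (TMM) by 0.04. The tested changes below are on the TMM scale, so that rises to day 7 are smaller, and rises from day 7 to day 11 larger, than the ratios of the CPM values beside them. With total counts alone 8 of the 10 genes, not 6, were called higher on day 7, and 7, not 6, lower on day 11. The added genes were Ctgf and Cyr61 on day 7 and Ctgf on day 11, and 87.3% of all calls on day 7 were then upward against 47.6% with TMM. On day 11 against day 7 the upward share was 15.9% against 52.4%.

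In tubular cells 6 of the 10 genes were higher on day 7 than in the control and none lower: Tgfb1, Tgfb2, Pdgfa, Pdgfb, Tgfbr1 and Tgfbr2. Of all 16300 genes tested, 34.8% were called, 16.6% higher and 18.2% lower. The median change of the 10 genes was 0.93 against 0.04 for all genes. From day 7 to day 11 the 6 genes named above were lower and Cyr61 was higher, where 44.5% of genes were called, 23.3% higher and 21.2% lower; the median was -1.19 against -0.07. On day 14 none of the 10 was called against the control in edgeR's quasi-likelihood test or with DESeq2, 2 had an unadjusted p under 0.05 (Cyr61 and Pdgfrb), and 8.09% of all genes were called (4.6% higher, 3.5% lower). With 1 control library, its spread was taken to equal that of the replicated days, and the comparisons that use the same libraries are not independent.

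**Figure D3:**
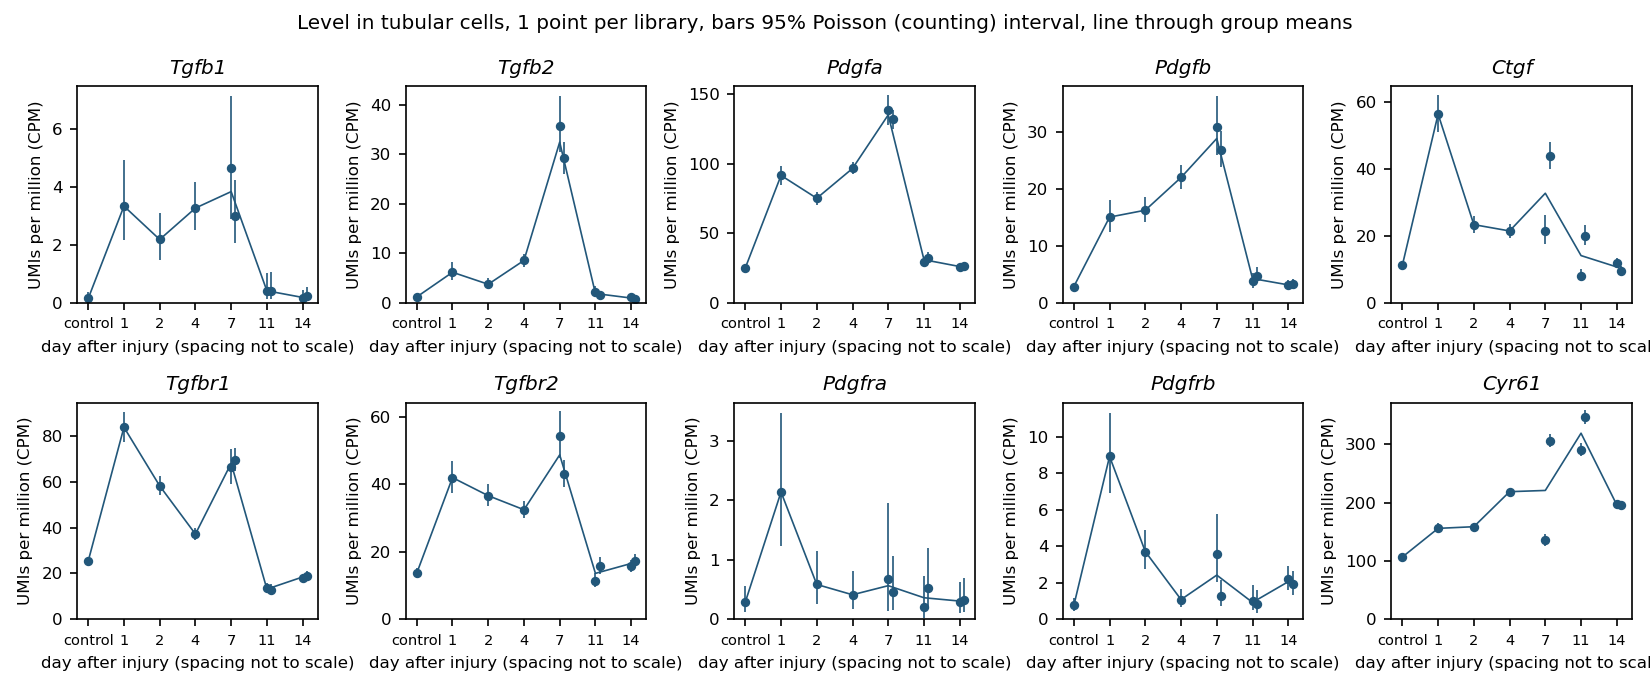
Level of each gene in tubular cells (CPM, y axis from 0) against day, 1 point per library with the 95% Poisson interval of its count, which covers counting error only, and a line through group means. Tgfb2 stands at 35.8 and 29.2 CPM on day 7 and at or under 8.53 CPM in the other libraries, while the highest Cyr61 point is day 11 replicate 2.

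Tgfb2, an isoform known from many epithelia, had the largest fitted change among the 10 genes in tubular cells from control to day 7, with Tgfb1 close behind. Its tubular level was 1.14 CPM in normal kidney, 6.14, 3.71 and 8.53 on days 1, 2 and 4, 35.8 and 29.2 in the day 7 pair, 2.22 and 1.44 in the day 11 pair, and 1.14 and 0.692 in the day 14 pair. Both day 7 libraries lay above all others, and days 1, 2 and 4 lay between them and the control. The change from control to day 7 was 4.03 ± 0.39 on the log2 scale (SE; edgeR quasi-likelihood test, Benjamini-Hochberg adjusted p = 3.08e-05), and that from day 7 to day 11 was -3.35 ± 0.31 (edgeR adjusted p = 1.51e-05). On day 7 several segments carried it: cells with injury markers at 45.4 and 46.0 CPM, principal cells of the collecting duct at 63.3 and 30.5, intercalated cells at 70.3 and 44.2 and proximal cells at 29.8 and 14.6. The thick ascending limb stood lower, at 8.55 and 2.59 CPM.

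Tgfb1, the isoform best known from macrophages and platelets, was sparse in tubular cells. They held 4 Tgfb1 UMIs in the control, 25, 30 and 64 on days 1, 2 and 4, 21 and 33 on day 7, and 3 or 4 in each later library. These gave 0.143 CPM in normal kidney, 3.34, 2.18 and 3.27 on days 1, 2 and 4, 4.67 and 3.01 in the day 7 pair, 0.404 and 0.412 in the day 11 pair, and 0.143 and 0.213 in the day 14 pair. Days 1 to 7 lay above the control and above days 11 and 14 with no overlap. The change was 3.85 ± 0.66 to day 7 (edgeR adjusted p = 0.00120) and -2.37 ± 0.53 from there to day 11 (edgeR adjusted p = 0.00423). In the libraries of days 1 to 7 the tubular level was 9.78 to 14.5% of the phagocyte level. The phagocyte genes Tyrobp, Ctss and Lyz2, read the same way, stood at 0.650 to 3.39% there, below Tgfb1 in each library. The part of free RNA, from phagocytes or other classes, in the tubular Tgfb1 level was not tested.

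Pdgfa encodes the PDGF-A chain, a mitogen of mesenchymal cells. Its tubular level was 25 CPM in the normal kidneys; days 1, 2 and 4 gave 91.7, 75.2 and 96.7, the day 7 libraries 138 and 132, the day 11 libraries 29.4 and 32.4, and the day 14 libraries 25.9 and 26.0. Days 1 to 7 did not overlap the control or the later days. It rose by 1.66 ± 0.20 to day 7 (edgeR adjusted p = 0.000136), and the change to day 11 was -1.34 ± 0.16 (edgeR adjusted p = 6.92e-05). Among the named segments the thick ascending limb was highest on day 7, at 269.8 and 193 CPM from 37.5 in the control.

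Pdgfb encodes the PDGF-B chain, which recruits pericytes. Its tubular level was 2.82 CPM in normal kidney, 15.1, 16.3 and 22.1 on days 1, 2 and 4, 30.9 and 27.0 in the day 7 pair, 3.74 and 4.73 in the day 11 pair, and 3.05 and 3.19 in the day 14 pair. Days 1 to 7 again did not overlap the other libraries. It rose by 2.57 ± 0.27 to day 7 (edgeR adjusted p = 5.50e-05), and the change to day 11 was -1.98 ± 0.22 (edgeR adjusted p = 4.81e-05). On day 7 it lay in proximal cells (73.1 and 28.3 CPM, from 27 UMIs in each library) and in cells with injury markers (42.6 and 48.6 CPM), against 9.77 and 11.9 in the thick ascending limb.

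The receptor genes Tgfbr1 and Tgfbr2 rose as well. Tubular Tgfbr1 was 25.4 CPM in the normal kidneys; days 1, 2 and 4 gave 83.8, 58.2 and 37.1, the day 7 libraries 66.5 and 69.6, the day 11 libraries 13.4 and 12.8, and the day 14 libraries 17.9 and 18.8. Tubular Tgfbr2 was 13.6 CPM in normal kidney, 42.0, 36.7 and 32.5 on days 1, 2 and 4, 54.5 and 43.1 in the day 7 pair, 11.4 and 15.7 in the day 11 pair, and 15.7 and 17.3 in the day 14 pair. For both genes days 1 to 7 lay above every other library. The change to day 7 was 0.65 ± 0.20 for Tgfbr1 (edgeR adjusted p = 0.0253) and 1.05 ± 0.25 for Tgfbr2 (edgeR adjusted p = 0.00877), and to day 11 it was -1.59 ± 0.17 and -1.05 ± 0.21 (edgeR adjusted p = 3.44e-05 and 0.00232). The day 7 call of Tgfbr1 was lost with DESeq2 (adjusted p = 0.0794), with no filter on low counts (edgeR adjusted p = 0.0985) and without day 14 replicate 1 or 2 (0.0572 and 0.0575). By median over libraries, principal cells were the tubular segment with the highest Tgfbr1, at 226 CPM on day 1 and 73.8 in the control.

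The mix of segments moved with the day, so segments were also fitted singly. Proximal cells were 68.3% of tubular cells in the control, 11.7% and 15.4% on day 7 and 76.8 to 81.2% later. Part of this fall is made by the gates. Proximal cells and cells with no assigned segment were moved to the class with injury markers at 2 or more UMIs of those markers. That class was 0.0736% of tubular cells in the control and 28.7% and 23.6% on day 7. The fits of proximal cells alone leave it out. In proximal cells alone the 4 ligand genes were still called higher on day 7, while Tgfbr1 (0.38, edgeR adjusted p = 0.354) and Tgfbr2 (0.66, edgeR adjusted p = 0.136) were not. In the thick ascending limb alone Tgfb2 (3.84, edgeR adjusted p = 0.0874) and Pdgfb (0.96, edgeR adjusted p = 0.235) were not called, and in principal cells alone Pdgfa was the 1 gene called.

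The CCN genes Cyr61 and Ctgf did not pass the test on day 7. Tubular Cyr61 was 107 CPM in the normal kidneys; days 1, 2 and 4 gave 156, 159 and 219, the day 7 libraries 135 and 306, the day 11 libraries 291 and 347, and the day 14 libraries 197 and 195. The day 7 libraries lay far apart, spanned the values of days 1, 2, 4 and 14, and overlapped day 11. Cyr61 did not pass on day 7 (0.29 ± 0.39, edgeR adjusted p = 0.594); without day 7 replicate 1 it did (0.78, edgeR adjusted p = 0.0162). Without day 7 replicate 2 the change was -0.46 (edgeR adjusted p = 0.113). In proximal cells alone it was -0.11 (edgeR adjusted p = 0.869), and in the thick ascending limb, distal, principal and intercalated gates 0.93, 0.63, 0.71 and 0.28, none of them called. It was higher on day 11 than on day 7 (1.30 ± 0.32, edgeR adjusted p = 0.00673). RLE size factors (1.28) and DESeq2 (1.28) called it too, but with total counts alone the change was 0.52 (edgeR adjusted p = 0.151). In proximal cells alone the change was 1.52 (edgeR adjusted p = 0.00507), at 368 and 422 CPM on day 11 against 125 and 280.4 on day 7. In the thick ascending limb alone it was 0.42 (edgeR adjusted p = 0.274), and in the distal, principal and intercalated gates taken singly -0.34, -0.49 and -0.03 (edgeR adjusted p = 0.564, 0.351 and 0.973).

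Ctgf stood at 11.2 CPM in normal kidney, 56.4, 23.3 and 21.5 on days 1, 2 and 4, 21.6 and 43.9 in the day 7 pair, 8.08 and 20.1 in the day 11 pair, and 11.9 and 9.42 in the day 14 pair in tubular cells. Day 1 was its highest library, and the day 7 and day 11 pairs did not overlap but nearly met. The change was 0.81 ± 0.49 to day 7 (edgeR adjusted p = 0.226) and -0.47 ± 0.41 to day 11 (edgeR adjusted p = 0.369). It was called on day 7 with no filter on low counts (0.74, edgeR adjusted p = 0.0300). In proximal cells alone both changes had the opposite sign, -1.25 and 2.35, and neither was called (edgeR adjusted p = 0.407 and 0.0672). Part of its UMIs lay in cells that passed a list of genes known from mesangial cells but not restricted to them here. The 5 genes, Itga8, Ptn, Sfrp2, Serpine2 and Gucy1a3, were chosen after the values had been seen, and a cell passed with at least 3 UMIs over at least 2 of the genes. Over sums of a class in a library, Gucy1a3 was the gene most correlated with Pdgfrb (Pearson's r 0.91). Pdgfrb was among the 3 genes most correlated with Ctgf (0.85). That passing cells hold UMIs of Pdgfrb and Ctgf is thus partly built into the list, and the fits without these cells are a description. Of 41568 tubular cells 274 passed, and they held 25.9% of the tubular Ctgf UMIs and 55.2% of those of Pdgfrb. Their share of Ctgf was 34.4% in the control, 3.09% and 0.415% in the day 7 pair, and 11.25% and 54.9% in the day 11 pair. Other gates passed more often: 94 of 172 fibroblasts (54.7%) and 121 of 312 mural cells (38.8%). Without the 274 tubular cells Ctgf was 7.52 CPM in the control, 21.1 and 44.0 on day 7 and 7.18 and 9.09 on day 11. It was then called higher on day 7 (1.37 ± 0.39, edgeR adjusted p = 0.0186) and lower on day 11 (-1.26 ± 0.32, edgeR adjusted p = 0.00910).

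The PDGF receptor genes were at low levels in tubular cells, although these many cells held the shares of their UMIs given above. Pdgfra ranged from 0.202 to 2.13 CPM and Pdgfrb from 0.750 to 8.94 CPM over the 10 libraries, and neither was called in any of the 3 comparisons. Pdgfrb changed by 1.52 ± 0.55 from control to day 14 (edgeR adjusted p = 0.104). It was called without day 7 replicate 1 or 2 (edgeR adjusted p = 0.0428 and 0.0417), and it was 0.93 without the cells passing the Itga8 list (edgeR adjusted p = 0.482). Cyr61 on day 14, 0.96 ± 0.40 against the control (edgeR adjusted p = 0.152), was likewise called without day 7 replicate 1 or 2 (0.0119 and 0.0123). In the proximal, thick ascending limb, distal, principal and intercalated gates taken singly the day 14 change was 0.61, 0.58, 0.69, -0.76 and 0.31, none of them called and the principal gate of the opposite sign.

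In endothelial cells 9 of the 10 genes had enough counts for a test. Ctgf and Tgfb2 were lower on day 7 than in the control, where 3.78% of 7774 genes were called (1.62% higher, 2.16% lower). Ctgf and Cyr61 were higher on day 11 than on day 7, where 9.42% were called (5.2% higher, 4.22% lower). On day 14 Ctgf was below the control, where 2.24% were called (0.81% higher, 1.43% lower). The medians of the 9 genes in these comparisons were -0.50, -0.22 and -0.86, against 0.02, -0.03 and 0.02 for all genes.

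The endothelial Ctgf values rest on few cells. Its level was 594 CPM in the normal kidneys; days 1, 2 and 4 gave 455, 404 and 253, the day 7 libraries 72.0 and 112, the day 11 libraries 544 and 1166, and the day 14 libraries 195 and 286. Of its 1630 endothelial UMIs, 1495 (91.7%) lay in the 158 of 2241 endothelial cells that passed the Itga8 list, and a single cell of day 11 replicate 2 held 188 of that library's 323. In the control 17 passing cells held 394 of 405 Ctgf UMIs. In the day 7 pair 12 and 15 passing cells held 5 of 12 and 14 of 51. The 158 cells had a median of 2596.5 UMIs against 1101 in the others, and 6.96% against 2.98% of them were among the highest 5% of doublet scores. With all cells the change was -2.77 ± 0.37 to day 7 (edgeR adjusted p = 7.75e-06), 3.35 ± 0.33 from day 7 to day 11 (3.16e-08) and -1.35 ± 0.35 from control to day 14 (0.0308). Without the 158 cells the level was 21.5 CPM in the control, 49.4 and 91.6 in the day 7 pair, 36.1 and 78.9 in the day 11 pair and 7.60 and 35.7 in the day 14 pair. The changes were then 1.61 ± 0.60 (edgeR adjusted p = 0.174), -0.25 ± 0.46 (0.798) and -0.18 ± 0.76 (0.955), so none of the 3 calls remained and the first and second turned in sign. The day 14 call was also lost with DESeq2 (adjusted p = 0.902), without day 14 replicate 1 (edgeR adjusted p = 0.143) and without the highest 5% of doublet scores (0.786).

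**Figure D4:**
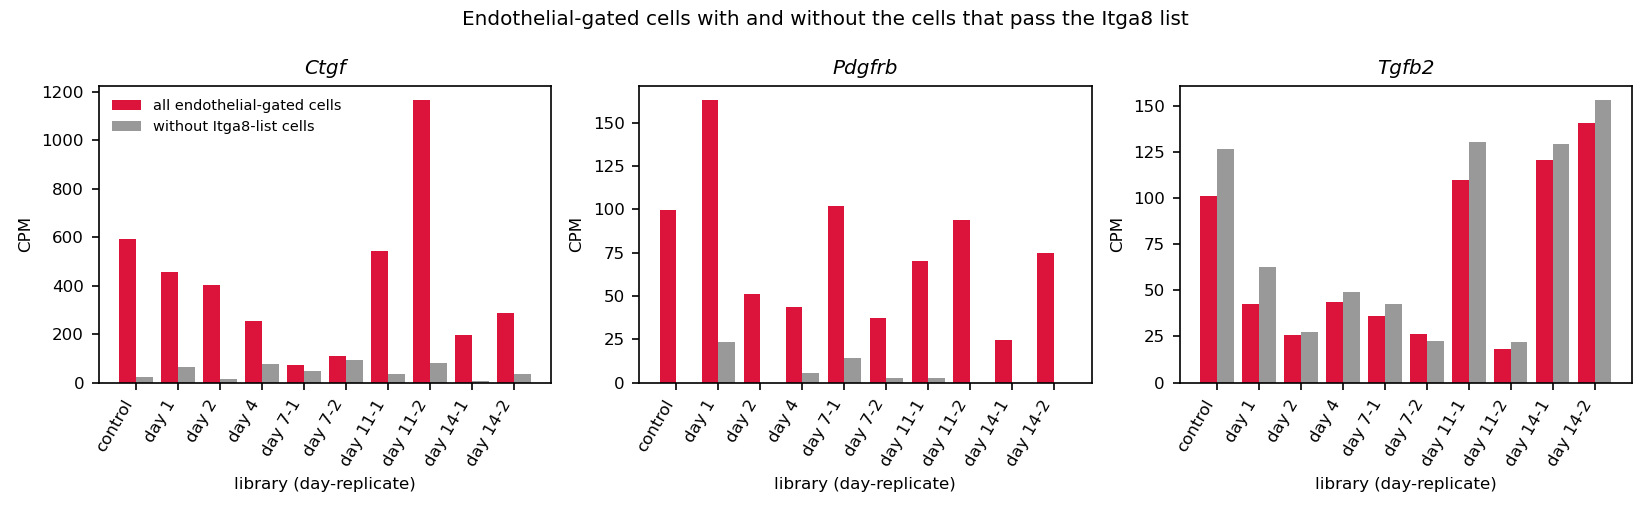
CPM of Ctgf, Pdgfrb and Tgfb2 in endothelial-gated cells of each library (bars from 0), over all such cells and without those that passed the Itga8 list. In the control Ctgf goes from 594 to 21.5 CPM and Pdgfrb from 99.8 to 0, while Tgfb2 goes from 101 to 127.

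Endothelial Pdgfrb was held by the same cells: 274 of its 285 UMIs lay in them. Its level over all endothelial cells, 24.8 to 163 CPM, is therefore mostly theirs. The list holds Gucy1a3, the gene most correlated with Pdgfrb here, so this overlap is partly built in. Acta2 and Tagln, which mark smooth muscle, stood in the endothelial gate at no more than 1.0% and 1.13% of their mural level. Mylk, a further check gene of the mural gate, stood at 3.27 to 10.3% of its mural level. These values cover the 7 libraries with at least 20 mural cells.

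Endothelial Tgfb2 lay elsewhere in the gate, with 9 of 245 UMIs in those cells. Its level was 101 CPM in normal kidney, 42.8, 25.6 and 43.8 on days 1, 2 and 4, 36.0 and 26.3 in the day 7 pair, 109.8 and 18.0 in the day 11 pair, and 120.4 and 141 in the day 14 pair. The day 7 pair lay below the control and the day 14 pair above it, and the day 11 libraries lay far apart. The change to day 7 was -1.95 ± 0.52 (edgeR adjusted p = 0.0271), and -2.37 ± 0.54 without the 158 cells (edgeR adjusted p = 0.00751). It was not called with DESeq2 (adjusted p = 1.0), with total counts only (edgeR adjusted p = 0.0699) or without day 7 replicate 2 (-1.71, edgeR adjusted p = 0.286). From day 7 to day 11 it changed by 1.49 ± 0.52 (edgeR adjusted p = 0.0633). It was called without the 158 cells (1.83 ± 0.53, edgeR adjusted p = 0.0257) and without day 11 replicate 2 (2.15, edgeR adjusted p = 0.000854). Without day 11 replicate 1 it was -0.45 (edgeR adjusted p = 0.770).

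Tgfb2 was also read in subsets of the endothelial gate. Cells with a UMI of Ehd3, a glomerular endothelial gene, and none of Plvap carried 33.7 CPM in the control and 15.7 and 12.7 on day 7. Cells with neither carried 293 CPM in the control and 50.9 and 54.3 on day 7. Cells with a UMI of Plvap and none of Ehd3 carried 71.2 CPM in the control, from 4 UMIs, and 19.3 in day 7 replicate 2, from 3; day 7 replicate 1 had only 17 such cells, with 2 UMIs. Cells with both carried 86.2 CPM in the control and 29.5 in day 7 replicate 2, there from 1 UMI, and were 5 in day 7 replicate 1. Each value given for day 7 was below that of the same subset in the control, and the day 7 values came from 1 to 6 UMIs a library. In 1 model of both classes, the change of Tgfb2 to day 7 in endothelial cells minus that in tubular cells was -5.99 ± 0.59, where 7.97% of 15340 genes differed. The gene went down in the endothelial gate and up in the tubule.

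The changes of all 10 genes were compared between classes in the same way. Between endothelial and tubular cells 4 genes differed in their change to day 7, 3 in that from day 7 to day 11 (background 6.91%) and 3 in that from control to day 14 (background 0.645%). Without the cells passing the Itga8 list these counts were 2, 2 and 0: Tgfb2 and Pdgfb were still called in the first and second comparison, and none of the day 14 differences was. The day 14 difference of Pdgfrb could not be tested then, since no endothelial Pdgfrb UMI remained in the control or on day 14. Between phagocytes and tubular cells 1, 2 and 0 genes differed, against 4.05, 5.1 and 0.152% of 15175 genes.

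Endothelial Cyr61 was 167 CPM in the normal kidneys; days 1, 2 and 4 gave 185, 78.4 and 112, the day 7 libraries 114 and 144, the day 11 libraries 262 and 375, and the day 14 libraries 99.1 and 211. Both day 11 libraries were the highest. It was higher on day 11 than on day 7 by 1.48 ± 0.30 (edgeR adjusted p = 0.00146), and by 1.40 ± 0.32 without the 158 cells (edgeR adjusted p = 0.00424); with DESeq2 it was not called (adjusted p = 0.0865). The 7 immediate early genes Fos, Fosb, Egr1, Jun, Junb, Ier2 and Atf3, which respond to stress and to dissociation, summed to 9750.0 and 12260.4 CPM on day 7 and 17909 and 17333 on day 11 in the same gate. In tubular cells the same sum was 4370 and 5476 CPM on day 7 and 3131 and 3109 on day 11. The part of these genes in the Cyr61 changes was not tested in either class.

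Pdgfb was higher in endothelial than in tubular cells in 10 of 10 libraries. The endothelial level ranged from 37.5 to 96.1 CPM and the tubular level from 2.82 to 30.9 (mean difference 1.65 ± 0.66 SD in log2(CPM + 10)). A two-sided exact sign-flip permutation test over libraries gave p = 0.00195, the smallest that 10 libraries allow (Benjamini-Hochberg adjusted p = 0.00586 over 9 pairs of gene and class). Endothelial Pdgfb did not pass between days (-0.53 ± 0.39 on day 7, edgeR adjusted p = 0.635). Its change to day 7 minus that of tubular cells was -3.15 ± 0.51 (edgeR adjusted p = 4.28e-08), so the gap between the classes was narrower on day 7.

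Tgfbr2 was also higher in endothelial than in tubular cells in 10 of 10 libraries, at 88.5 to 188 CPM against 11.4 to 54.5 (1.91 ± 0.41 SD, exact sign-flip permutation p = 0.00195, adjusted p = 0.00586). It did not pass between days in endothelial cells (0.30 ± 0.32 on day 7, edgeR adjusted p = 0.786). Endothelial Pdgfa was 88.1 CPM in normal kidney, 88.3, 66.3 and 97.2 on days 1, 2 and 4, 132 and 114 in the day 7 pair, 70.1 and 68.6 in the day 11 pair, and 42.5 and 23.4 in the day 14 pair. Its day 14 pair was the lowest of the 10 libraries, and the change from control was -1.39 ± 0.43 (edgeR adjusted p = 0.0813).

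Mononuclear phagocytes carried Tgfb1 together with both of its receptor genes, and were not alone in this. By median, endothelial cells stood at 12.7 CPM for Tgfb1, 26.7 for Tgfbr1 and 119 for Tgfbr2, and fibroblasts at 56.3, 55.2 and 132. The phagocyte Tgfb1 level was 32.4 CPM in the normal kidneys and 33.0, 20.6 and 22.6 on days 1, 2 and 4. The day 7 libraries gave 42.6 and 30.8, the day 11 libraries 14.1 and 0, and the day 14 libraries 0 and 0. The control value came from 2 UMIs. In the 3 libraries at 0 a count of 3 would be 28.9, 79.4 and 41.7 CPM. The first of these limits lies below both day 7 levels, the second above both, and the third between them. Phagocyte Tgfb1 had too few counts for a test between days. Tgfb1 was higher in phagocytes than in tubular cells in 7 of 10 libraries (1.10 ± 0.82 SD, exact sign-flip permutation p = 0.0156, adjusted p = 0.0201).

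Phagocyte Tgfbr1 was 454 CPM in normal kidney, 107, 88.0 and 135 on days 1, 2 and 4, 179.8 and 181 in the day 7 pair, 113 and 135 in the day 11 pair, and 317 and 181 in the day 14 pair. Each library exceeded its own tubular level (2.01 ± 1.18 SD, exact sign-flip permutation p = 0.00195, adjusted p = 0.00586). The control was the highest, from 28 UMIs in 45 cells, and day 2 the lowest. The change to day 7 was -1.46 ± 0.43 (edgeR adjusted p = 0.0656). It was called with RLE size factors (-1.56, edgeR adjusted p = 0.0384), with DESeq2 (-1.54, adjusted p = 0.00893), without day 7 replicate 2 (edgeR adjusted p = 0.0446) and without day 11 replicate 1 (0.0387). The change in phagocytes minus that in tubular cells was -1.76 ± 0.45 (edgeR adjusted p = 0.00435).

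Pdgfa, Tgfbr1 and Tgfbr2 were the 3 genes with enough phagocyte counts for a test, and none was called by edgeR in any comparison with TMM and all libraries; the settings that called Tgfbr1 on day 7 are given above. Of 4095 genes 2.95% were called on day 7 against control (1.29% higher, 1.66% lower), 4.84% on day 11 against day 7 (3.83% higher, 1% lower) and 0.464% on day 14 against control (0.342% higher, 0.122% lower). At an unadjusted p under 0.05, Tgfbr1 alone of the 3 genes passed, on day 7 and on day 14 against control.

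**Figure D5:**
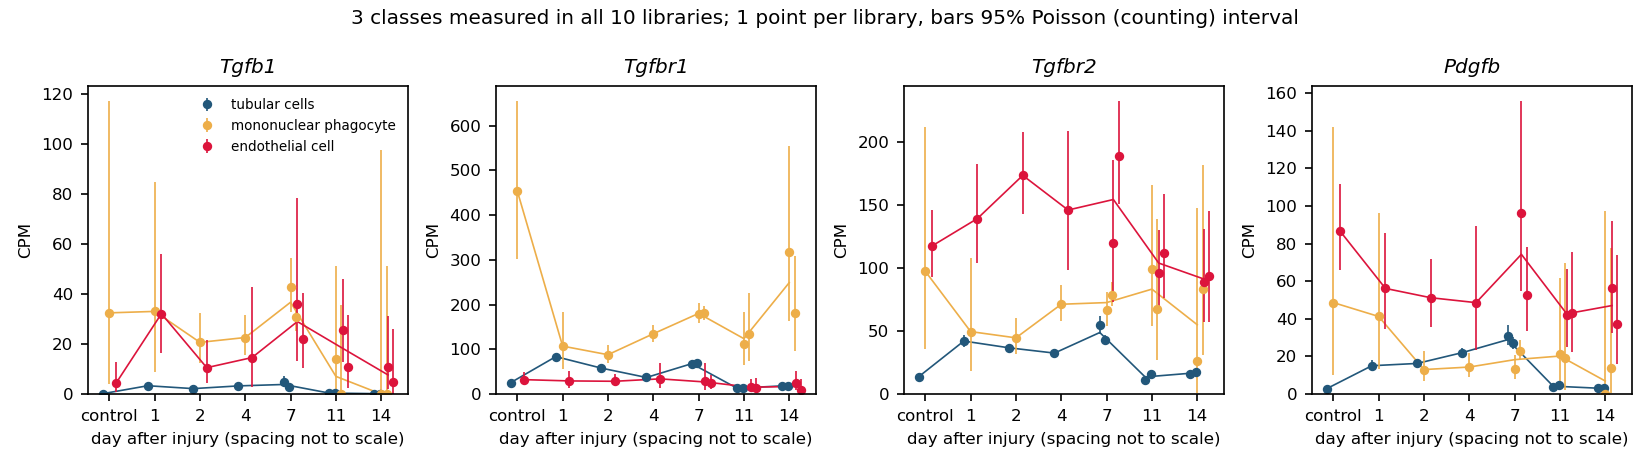
Tgfb1, Tgfbr1, Tgfbr2 and Pdgfb in tubular cells, phagocytes and endothelial cells (CPM, y axis from 0) against day, 1 point per library with the 95% Poisson interval of its count and a line through group means. Tgfbr1 is highest in phagocytes in all 10 libraries, and Tgfbr2 and Pdgfb are higher in endothelial than in tubular cells in all 10.

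The makeup of the phagocytes moved with the day. Cells with C1q UMIs, which mark macrophages, were 45 of 45 in the control, 20 of 77 on day 1, 84 of 276 on day 2, 389 of 772 on day 4 and 796 of 939 and 1278 of 1501 on day 7. Both kinds of cell numbered at least 20 in 6 libraries. Tgfbr1 in the C1q cells was 134 CPM on day 1, 121 on day 2, 163 on day 4 and 188 and 189 on day 7, against 98.5, 68.8, 98.9, and 126 and 125 in the others. The C1q cells were the higher in these 5 libraries, on day 1 from only 4 and 9 UMIs. In day 14 replicate 2 the order was the other way, at 152 and 233 CPM from 7 and 6 UMIs.

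Podocytes had at least 20 cells in 7 libraries. Their Ctgf level ranged from 190.2 to 694 CPM and exceeded the tubular level in 7 of 7 (3.39 ± 1.05 SD, exact sign-flip permutation p = 0.0156, the smallest that 7 libraries allow, adjusted p = 0.0201). Of 637 podocytes 1 passed the Itga8 list, with 3 of the 382 podocyte Ctgf UMIs. Podocyte Cyr61, 54.3 to 361 CPM, was above tubular cells in 2 of 7 libraries (-0.32 ± 0.52 SD, exact sign-flip permutation p = 0.172, adjusted p = 0.193). Tgfb2 was near 0 in podocytes, 4 UMIs in all, and above tubular cells in 2 of 7 (-0.16 ± 0.45 SD, exact sign-flip permutation p = 0.312, adjusted p = 0.312).

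Mural cells carried a PDGF ligand and a PDGF receptor gene in 1 gate. The 121 of its 312 cells that passed the Itga8 list held 62 of its 128 Pdgfrb UMIs. Over the whole gate the Pdgfa level ranged from 270.1 to 527 CPM in 7 libraries, above tubular cells in each (2.51 ± 0.98 SD, exact sign-flip permutation p = 0.0156, adjusted p = 0.0201). The Pdgfrb level of the whole gate was 197 CPM in the control, 390.3 and 376 on days 1 and 2, 203 and 263 on day 7, 128 in day 11 replicate 1 and 211 in day 14 replicate 1. It was above tubular cells in 7 of 7 libraries (4.27 ± 0.39 SD, exact sign-flip permutation p = 0.0156, adjusted p = 0.0201).

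Fibroblasts gave levels on day 2, on day 4, in day 7 replicate 2 and in day 11 replicate 1. Pdgfra was 198, 109, 159 and 59.1 CPM there, against at most 0.582 CPM in the tubular cells of those libraries. Pdgfrb was 409, 581, 345 and 177 CPM, and Ctgf 237, 496, 746 and 1270.5. Both receptor genes were lowest and Ctgf highest in the day 11 library, which had 23 fibroblasts. Its levels came from 2 UMIs of Pdgfra, 6 of Pdgfrb and 43 of Ctgf, so its Pdgfra level is uncertain. The fibroblasts that passed the Itga8 list held 102 of 150 Pdgfrb UMIs and 133 of 254 Ctgf UMIs of that gate. No test was made, since 4 libraries cannot give a p under 0.125.

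Other genes of these pathways were read from 7 lists. Of 10 TGF-beta target genes, 7 were higher in tubular cells on day 7 and none lower, with a median of 3.56 against 0.04 for all genes; the background was 34.8% of all genes called, 16.6% higher and 18.2% lower. Timp1, an inhibitor of matrix proteases, went from 0.0714 CPM in the control, which is 2 UMIs, to 17.8 and 24.2 on day 7 (edgeR adjusted p = 0.000139). Of 9 YAP target genes 4 were higher and none lower, against the same background, led by Ankrd1 (7.16 ± 0.50) and Axl (4.05 ± 0.45). Tubular Ankrd1 was 0.822 CPM in the control, 137, 36.2 and 202 on days 1, 2 and 4, 213 and 193 on day 7 and at most 14.1 later. Its days 1 to 7 did not overlap the other libraries, whereas those of Cyr61 did.

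Of 10 latency and activation genes, 5 were higher on day 7, led by the TGF-beta binding proteins Ltbp4 (2.49) and Ltbp1 (2.21), and 2 lower, Itgb8 (-1.64) and Furin (-0.77). Of 8 other ligand genes 3 were higher, among them Inhba (1 UMI in the control, 1.56 and 1.37 CPM on day 7) and Bmp6 (2.86). Bmp7, a ligand of kidney epithelium, was lower (-1.35 ± 0.23, edgeR adjusted p = 0.00122). Of 13 co-receptor and SMAD genes, Smad3 (1.45) and Smurf1 (1.31) were higher and Smurf2 (-1.21) and Skil (-0.58) lower. Of the other CCN genes Wisp1 was higher (2.72), 1 of 2 tested, and of the other PDGF genes 0 of 2 tested were called. Against the 34.8% of all genes called (16.6% higher, 18.2% lower), the 4 of 13 co-receptor and SMAD genes lie near the background, and the CCN and PDGF lists are too short to compare. The medians of these 5 lists were 1.20, 1.32, 0.19, 1.69 and 0.31.

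From day 7 to day 11, 6 of the 10 target genes, 6 of the 9 YAP target genes, 5 of the 10 latency genes, 7 of the 13 co-receptor and SMAD genes and 3 of the 8 ligand genes were lower in tubular cells. In the other direction 0, 0, 2, 1 and 2 were higher. Of all genes 44.5% were called, 21.2% lower and 23.3% higher. The genes that were higher included Bmp7 (0.84), Itgb8 (0.53) and Bambi, a decoy receptor (1.39). Of the CCN genes Nov was higher (1.43) and Wisp1 lower (-2.21). On day 14 Bmp6 was still above the control (2.53 ± 0.67, edgeR adjusted p = 0.0453). Thbs1, Skil, Pmepa1 and Tead1 were lower on day 14. Over the 7 lists 6 of 53 genes tested were called on day 14 (11.3%), near the 8.09% of all genes.

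In endothelial cells on day 7 Lrrc32, which anchors latent TGF-beta, was higher (1.30 ± 0.34, edgeR adjusted p = 0.0226). Of 12 co-receptor and SMAD genes tested there, 3 were lower, led by the inhibitory SMAD genes Smad7 (-1.51 ± 0.30, edgeR adjusted p = 0.00188) and Smad6 (-1.45 ± 0.38, 0.0208), where 3.78% of all genes were called, 2.16% lower. No gene of the other 5 lists was called there on day 7. From day 7 to day 11 Lrrc32 (-1.15) and Pmepa1 (-1.81) were lower and Bambi (1.25) higher. These were 3 of 39 listed genes tested, 7.69% against 9.42% of all genes. In phagocytes Fn1, the fibronectin gene, was the 1 gene called of 11 listed genes tested, higher on day 7 (edgeR adjusted p = 0.0229), where 2.95% of all genes were called; a single call is too few to compare with that share. It had 0 UMIs in the 45 control phagocytes, and 139.9 and 299 CPM on day 7.

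The genes most like each member were ranked by Pearson's r of log2(CPM + 10) over 110 sums of a class in a library, among 9712 genes. The sums share libraries and classes, so r is a description and carries no p. Pdgfrb was most like Gucy1a3 (0.91), Ccdc80 (0.90) and Serping1 (0.90), and Pdgfra most like Col6a2 (0.89), Fbln1 (0.89) and Dpt (0.89), of which Dpt is a gate marker. Ctgf was most like Tm4sf1 (0.86), Pdgfrb (0.85) and 2310022B05Rik (0.84). Tgfb2 was most like Id3 (0.77), Col4a2 (0.77) and Col4a1 (0.75), Tgfbr2 like Ifnar2 (0.78), Gnai2 (0.75) and Il10rb (0.73), and Pdgfa like Pdlim7 (0.78), Smarcd3 (0.68) and Tinagl1 (0.68). Cyr61 was most like Acyp2 (0.77), Rbpms (0.71) and Map1lc3a (0.69), and Pdgfb like Sema6a (0.73), Plk2 (0.68) and Adam15 (0.68). The lowest were Tgfbr1, with Nfkbiz (0.70), Acer3 (0.67) and Cd14 (0.67), and Tgfb1, with Marcks (0.69), Gda (0.67) and Lrp1 (0.66).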

How the data were processed

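The deposited tables hold whole-number counts per gene and cell barcode, which were read as UMIs although the labels do not state it. Bowtie2 2.2.7 and mm10 are named in the submitters' processing notes; the counter, its annotation and its use of strand are not given in the sources used here. The 10 genes, the gates and the pathway lists were chosen with earlier results of these data known.

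Cells were required to have 500 UMIs, 500 genes and no more than 50% mitochondrial UMIs. A class needed at least 3 UMIs over at least 2 of its markers and 2 times the next list. Cells holding several lists were left out as mixed. The class with injury markers was instead taken from proximal cells and cells with no assigned segment, at 2 or more UMIs of the injury markers. Doublets called by Scrublet's own threshold were no more than 0.111% of any library, so it was not used; leaving out the highest 5% of scores was an alternative. Counts were summed per class and library and tested over all genes with edgeR 4.0.16 in R 4.3.3 (TMM, quasi-likelihood, 3 residual degrees of freedom, Benjamini-Hochberg adjusted p under 0.05), and the SE is the size of the log2 change divided by the square root of F. Classes were compared within libraries by exact sign-flip permutation of log2(CPM + 10). DESeq2 1.42.0, scanpy 1.11.5, scipy 1.17.1, pandas 2.3.3, numpy 2.4.6 and Python 3.11.15 were used. Poisson intervals and limits at a count of 0 (3 counts) cover counting error only.

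On simulated data for tubular cells on day 7 against control, 86% of genes changed 4-fold and 12% of those changed 2-fold were recovered among 15398 genes, with 0.0395% false calls. Of each pathway list, up to 2 genes per direction with the largest called change were named, and for each of the 10 genes the 3 most correlated. The values of 1 listed gene are not reported here. The thick limb, distal, principal and intercalated gates, the Itga8 list, scaling by total counts only and the models of differences between classes were added after seeing the data; the other alternatives were RLE size factors, DESeq2, no filter, a gate of 5 UMIs, 25% mitochondrial UMIs, a pseudocount of 1 CPM, the proximal gate, a replicate block and leaving out each library.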

Additional observations from a re-analysis of the deposited data

Results flagged for a closer look

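In 13 of 60 comparisons, the change of a gene in endothelial cells or phagocytes differed from its change in tubular cells. The difference itself was tested (edgeR quasi-likelihood, 1 model of both classes with the library as a block, Benjamini-Hochberg adjusted over all genes). Of all genes, 7.97% differed for endothelial cells from control to day 7, 6.91% from day 7 to day 11 and 0.645% from control to day 14. For phagocytes these shares were 4.05, 5.1 and 0.152%. The values below are log2 changes in the class minus those in tubular cells.

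In phagocytes the difference for Tgfbr1 was -1.76 from control to day 7 and 1.29 from day 7 to day 11 (edgeR adjusted p = 0.00435 and 0.0353). For Tgfbr2 it was 1.54 from day 7 to day 11 (edgeR adjusted p = 0.0314). The control holds 45 phagocytes, all with C1q UMIs.

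In endothelial cells the difference from control to day 7 was -5.99 for Tgfb2, -3.70 for Ctgf, -3.15 for Pdgfb and -1.43 for Pdgfa. From day 7 to day 11 it was 4.66 for Tgfb2, 3.94 for Ctgf and 1.58 for Pdgfb. From control to day 14 it was -2.65 for Pdgfrb, -1.54 for Pdgfa and -1.37 for Ctgf. Without the cells passing the Itga8 list, the differences of Tgfb2 (-6.57 and 5.11) and Pdgfb (-3.41 and 1.85) were still called. Those of Ctgf (-0.00, 1.24 and 0.23) and Pdgfa (-0.95 and -0.93) were not. That of Pdgfrb could not be tested, since no endothelial Pdgfrb UMI remained in the control or on day 14.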

How the results depend on the processing

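Of the changes of single genes, 895 kept their direction and side of the threshold under an alternative, 36 lost their call and 27 gained one. A further 58 turned in sign but were called neither as reported nor under the alternative, and 5 that had been called turned in sign and lost their call. The 5 were Cyr61 from day 7 to day 11 in the distal, principal and intercalated gates (-0.34, -0.49 and -0.031) and endothelial Ctgf without the cells of the Itga8 list (1.61 to day 7 and -0.25 to day 11). Except for those shown, the cause of a change was not tested; single segments hold fewer cells.

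In tubular cells 5670 genes were called on day 7 against control, and 8929 with total counts only. The proximal, thick limb, distal, principal and intercalated gates gave 2891, 2570, 1383, 848 and 223, with 3, 1 and 0 of the 10 genes in the thick limb, principal and intercalated gates. From day 7 to day 11 they gave 3369, 3369, 1836, 1189 and 656 against 7258, with 3, 3, 2 and 0 of the 10 genes in the last 4. On day 14 the thick limb, distal, principal and intercalated gates gave 175, 362, 174 and 19 against 1319, and no filter gave 2385, with 1 of the 10 genes (Cyr61). The shares of all genes tested in the single gates are not given here, so the counts of the 10 genes there are not compared with them.

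In phagocytes, where the reported fit tested 3 of the 10 genes, 1 (Tgfbr1) was called on day 7 with RLE size factors and with DESeq2. The number of phagocyte genes called went from 198 to 357 on day 11 with total counts only. On day 14 it went from 19 to 44 with total counts only, 41 with no filter, 38 with DESeq2 and 12 without the highest 5% of Scrublet scores. In endothelial cells, where the reported fit tested 9 of the 10 genes, DESeq2 called 48, 138 and 9 genes against 294, 732 and 174. Of the 10 genes these held 1, 1 and 0. On day 7, 1 of the 10 was called with total counts only and without the Itga8-list cells; on day 14, 0 without those cells, where 92 genes were called, and 0 without the highest Scrublet scores. Fibroblast Pdgfra exceeded tubular cells by 6.42 log2 with a pseudocount of 1 CPM, against 3.65. The share of calls that were upward went with total counts only from 43.8 to 62.5% and from 79.3 to 31.1% in phagocytes (days 7 and 11), and from 42.9 to 60.5% and from 55.2 to 26.4% in endothelial cells.

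Leaving out 1 library gave 4830 to 6988 tubular genes on day 11 (fewest without day 11 replicate 2) and 251 to 2546 on day 14, with 0 to 2 of the 10 genes (fewest without day 14 replicate 2, most without day 7 replicate 1). Phagocytes gave 71 to 145, 85 to 209 and 1 to 40 on days 7, 11 and 14 (fewest without day 14 replicate 2, day 11 replicate 2 and day 14 replicate 2), with 0 to 1 of the 10 genes on day 7. Endothelial cells gave 178 to 360, 310 to 831 and 58 to 298 (fewest without day 7 replicate 2, day 11 replicate 2 and day 14 replicate 2), with 1 to 3 of the 10 genes on day 7 and 0 to 1 on day 14. The replicate differences correlated at 0.37 between days 7 and 11, -0.0093 between 7 and 14 and -0.094 between 11 and 14. Replicate numbers thus did not pair the day 14 libraries with the others, and a pairing of days 7 and 11 was not tested. With the replicate block, day 11 against day 7 gave 7330 tubular genes (7 of the 10), 149 in phagocytes (0) and 718 in endothelial cells (2).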
